A study of Mus musculus with 12 samples.

Results

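The respiratory chain and the ATP synthase were followed as 95 nuclear, protein-coding mouse genes, out of 13298 genes that reached the same level of expression in these libraries. They were taken by symbol (Nduf, Sdha to Sdhd with the Sdhaf assembly factors, Uqcr, Cox4 to Cox8 and Atp5). A gene was kept when it reached at least 1 FPKM (fragments per kilobase of transcript, scaled to the mapped fragments of the library, a level corrected for gene length) in at least 3 of the 12 libraries. Of 100 protein-coding symbols that matched, Ndufb1, Ndufb4b and Ndufb4c had no value in the tables used here, and Cox7b2 and Cox8c had values below the minimum. The members were 36 genes of complex I, 4 of complex II, 8 of complex III, 18 counted with complex IV, 17 of complex V, 8 assembly factors of complex I and 4 of complex II.

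RNA of mouse dorsal epidermis, freed from the dermis by heat, was sequenced after removal of ribosomal RNA in 4 groups of 3 libraries on the C57BL/6 strain background. Controls were labelled VDR fl/fl, Med1 fl/fl with K14 Cre-/-, and so carried the floxed alleles without the recombinase. The double knockout (DKO) libraries had the same floxed alleles with K14 Cre+/-, where the keratin 14 promoter drives Cre in basal keratinocytes. Each genotype was sampled at postnatal day 36 (P36) and at 6 months. The study's stated subject is the epidermal permeability barrier after loss of the vitamin D receptor and of Med1, a Mediator subunit that acts as its coactivator.

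The mitochondrial inner membrane carries these complexes. Complex I takes electrons from NADH and complex II takes them from succinate, both pass them to ubiquinone, complex III hands them to cytochrome c, and complex IV reduces oxygen. Complexes I, III and IV pump protons, and complex V, the ATP synthase, uses the return flow to make ATP. In the epidermis mitochondria are mainly a feature of the living layers, since keratinocytes lose their organelles as they cornify. Subunits encoded by mitochondrial DNA were not analysed here.

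The libraries were first compared with their labels. Vdr stood at 65.8, 65.5 and 72.9 FPKM in the P36 controls and at 87.4, 86.7 and 76.5 FPKM in the P36 libraries labelled DKO, and at 53.5, 31.4 and 36.7 against 49.3, 42.1 and 52.9 FPKM at 6 months. Vdr was thus not lower under the DKO label at either age, and the sources used here do not say which part of the gene the floxed allele removes. Med1 was lower in every library labelled DKO than in every control of the same age, at 8.20 to 10.4 against 13.2 to 14.2 FPKM at P36 and 11.4 to 11.9 against 12.7 to 16.7 FPKM at 6 months. It passed the test at P36 (log2 change -0.55, SE 0.11, limma adjusted p = 0.0083) and not at 6 months (-0.26, SE 0.12, limma adjusted p = 0.13). All 8 keratinocyte markers (among them Krt5, Krt14, Krt1 and Krt10) had values above 0 in all 12 libraries. The FPKM columns summed to 513455 to 554382 at P36 and to 446617 to 529023 at 6 months, and read depth is unknown.

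Promoter sequences were read for 79 members from RefSeq (GRCm38.p6), in windows from 250 bases before to 50 bases after the gene's start. Respiratory chain promoters are known for sites of NRF1, of ETS-family factors such as GABP, and of YY1. Both strands were searched for the NRF1 letters (GCGC, any base, TGCGC), the ETS letters CCGGAAG, the YY1 letters AAGATGGC and the letters AAGGTCA that the estrogen-related receptors recognise. The NRF1 letters lay in 21 member windows (26.6%), against 11.2% of the 10071 windows of genes tested at 6 months and 7.2% of 17492 coding genes. The ETS letters lay in 22 (27.8%, against 19.6% and 12.9%), the YY1 letters in 11 (13.9%, against 5.1% and 3.6%) and the receptor letters in 8 (10.1%, against 3.9% and 4.7%). In all, 46 of the 79 held the letters of NRF1, ETS or YY1.

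The 5 stretches printed here, 1 for each complex, are the 250 bases before the start. They show what these letters look like in members that rose at 6 months, and were picked after the sequences were seen: the member with the smallest p that has 1 window and such a match within 100 bases of the start. All 5 genes lie on the minus strand of GRCm38.p6, and each stretch is written 5′ to 3′ in the gene's direction, with NRF1 and ETS letters in capitals (an ETS match on the other strand reads CTTCCGG). The windows are Ndufs6 at chr13:73328483-73328732, Sdhd at chr9:50603850-50604099, Uqcrh at chr4:116075071-116075320, Cox6b1 at chr7:30626115-30626364 and Atp5h at chr11:115419920-115420169.
Ndufs6: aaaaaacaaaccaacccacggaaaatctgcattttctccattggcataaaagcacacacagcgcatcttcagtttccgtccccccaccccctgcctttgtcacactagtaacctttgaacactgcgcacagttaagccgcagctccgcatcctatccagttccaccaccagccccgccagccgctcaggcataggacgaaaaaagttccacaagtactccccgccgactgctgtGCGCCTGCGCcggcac
Sdhd: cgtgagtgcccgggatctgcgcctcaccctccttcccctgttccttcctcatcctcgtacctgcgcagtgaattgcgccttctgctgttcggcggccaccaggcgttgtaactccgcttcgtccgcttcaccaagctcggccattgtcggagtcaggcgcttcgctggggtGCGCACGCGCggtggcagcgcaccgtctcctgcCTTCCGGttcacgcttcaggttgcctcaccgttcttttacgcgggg
Uqcrh: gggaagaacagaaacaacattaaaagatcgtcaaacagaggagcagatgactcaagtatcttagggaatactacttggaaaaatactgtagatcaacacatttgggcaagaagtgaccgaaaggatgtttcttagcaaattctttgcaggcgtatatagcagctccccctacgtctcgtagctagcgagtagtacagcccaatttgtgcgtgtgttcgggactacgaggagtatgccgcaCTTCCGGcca
Cox6b1: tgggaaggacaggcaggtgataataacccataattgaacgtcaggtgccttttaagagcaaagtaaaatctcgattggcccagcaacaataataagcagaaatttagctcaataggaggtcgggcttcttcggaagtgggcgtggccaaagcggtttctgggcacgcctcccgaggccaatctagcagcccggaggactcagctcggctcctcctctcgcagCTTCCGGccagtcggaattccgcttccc
Atp5h: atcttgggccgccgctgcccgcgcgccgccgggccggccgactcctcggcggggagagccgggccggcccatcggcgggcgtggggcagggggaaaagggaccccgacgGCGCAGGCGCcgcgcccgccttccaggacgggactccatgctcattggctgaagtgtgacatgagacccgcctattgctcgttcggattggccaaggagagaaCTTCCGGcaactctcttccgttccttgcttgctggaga
The match nearest to the start begins 10 bases before it in Uqcrh, 16 in Ndufs6, 28 in Cox6b1, 38 in Atp5h and 46 in Sdhd. A match is a description of the letters and not of binding. Members with and without the NRF1 letters had nearly the same median change at 6 months, 0.67 (n = 21) and 0.68 (n = 57) on the log2 scale. For the ETS letters the medians were 0.73 (n = 22) and 0.61 (n = 56).

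At 6 months most members were higher in the libraries labelled DKO. Of 93 members tested, 70 rose and 1 fell, where 23.2% of the 12594 genes tested rose, 18.2% fell and 41.3% were called in either direction. The median change of the members was 0.67 on the log2 scale (1.60-fold), against 0.04 for all genes tested. Changes are differences of log2(FPKM + 1), and calls were made in limma where the p, adjusted over all genes by Benjamini-Hochberg, was below 0.05. In 74 members every DKO-labelled library lay above every control, in 3 every one lay below, and 16 overlapped (all genes: 31.8% above and 24.0% below). Together the members made up 1.54 to 1.74% of the FPKM total in the 6-month controls and 2.43 to 2.58% in the libraries labelled DKO. In bulk tissue, fewer cells of a type and less RNA per cell cannot be told apart.

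At P36 few members passed. Of 95 tested, 6 rose and none fell by limma's adjusted p, where 18.0% of 12660 genes rose, 5.32% fell and 23.3% were called. Of these 6, Cox6a2 and Cox8b passed the expression filter through libraries in which they were high. Among the 93 members that reached 1 FPKM in every P36 control, 4 rose and none fell. At an unadjusted p below 0.05 in limma, 27 members were higher and 1 lower, against 26.3% and 8.6% of all genes. The median member change was 0.19, against 0.09 for all genes, and 84 members were on the higher side. In 31 members the DKO-labelled libraries all lay above the controls and in 2 all below (30.0% and 9.63% of all genes). The share of members above was close to that of all genes, and the share below was smaller.

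**Figure D1:**
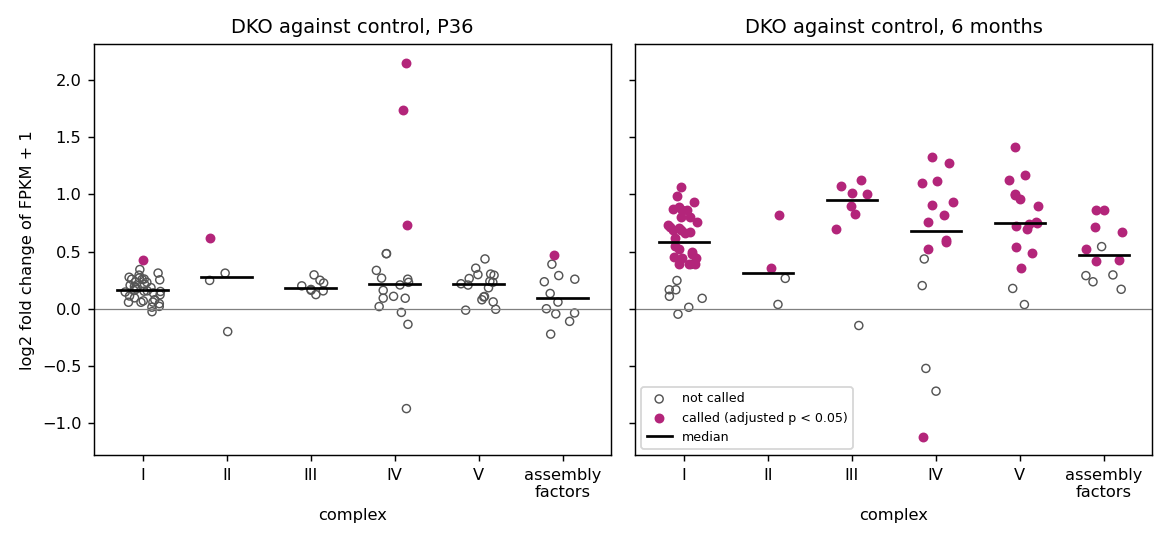
Log2 fold change of FPKM + 1, DKO against control, for each member (points) by complex at P36 and at 6 months, with filled points for members called at an adjusted p below 0.05 and a bar at each median. At P36 the medians sit between 0.10 and 0.28 with 6 filled points, and at 6 months between 0.31 (complex II) and 0.95 (complex III) with 71 filled points, 1 of them below 0.

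The 5 complexes differed in their share of called members at 6 months, a comparison given without a test. Complex V had 15 of 17 members higher (median 0.75), complex III 7 of 8 (0.95), complex I 28 of 36 (0.59), complex IV 11 of 16 higher and 1 lower (0.68), and complex II 2 of 4 (0.31). Of the 12 assembly factors, 7 rose (0.47). Under the GC and length correction described further on, the complexes lay closer together. There complex III had 6 of 8 members higher (median 0.46), complex V 11 of 17 (0.32) and complex II 2 of 4 (0.24). Complex I had 18 of 36 higher and 1 lower (0.25), and complex IV 7 of 16 higher and 2 lower (0.26). At P36 the called members were 3 of 18 in complex IV, 1 each in complexes I and II, 1 assembly factor, and none by limma in complexes III and V (0 and 5 at an unadjusted p below 0.05). The complex IV calls were Ndufa4, and Cox6a2 and Cox8b, which passed the filter through libraries in which they were high.

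Complex I, the NADH dehydrogenase, has a set of core subunits kept since bacteria and a larger set of accessory subunits around them. At 6 months 5 of 7 core subunits rose (median 0.49), as did 23 of 29 accessory subunits (median 0.62). Ndufs1, a core subunit that carries iron-sulfur clusters, stood at 22.9, 23.6 and 24.6 FPKM in the controls and at 42.4, 46.3 and 43.1 FPKM in the libraries labelled DKO. The groups did not overlap, and the change was 0.86 (SE 0.09, limma adjusted p = 0.00067). At P36 the same gene read 32.9, 28.0 and 30.6 FPKM in controls against 38.1, 30.8 and 35.8 FPKM, and the groups overlapped (0.19, limma adjusted p = 0.27).

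Ndufv2, a core subunit of the NADH-oxidising module, stood at 36.1, 38.3 and 43.7 FPKM in the 6-month controls and at 75.1, 86.3 and 75.7 FPKM under the DKO label. All 3 DKO-labelled values lay well above the controls (0.99, SE 0.11, limma adjusted p = 0.00086). Its partner in that module, Ndufv1, which binds NADH, was not called (0.17, limma adjusted p = 0.22), and neither was the core subunit Ndufs7 (0.11, limma adjusted p = 0.57). Both were called higher under the GC correction described further on, and Ndufv1 was also called under the GC and length correction. Transcript GC content was 42.0% for Ndufv2, 56.7% for Ndufv1 and 60.7% for Ndufs7. Among accessory subunits, Ndufa1 rose at both ages. It read 70.4, 71.2 and 87.5 FPKM in P36 controls against 98.0, 115 and 94.9 FPKM (0.42, SE 0.12, limma adjusted p = 0.038). At 6 months it read 23.7, 30.5 and 29.6 against 57.7, 63.2 and 57.1 FPKM (1.07, limma adjusted p = 0.00088). The groups did not overlap at either age, but each call was lost under a correction for GC content and transcript length described further on, where the 6-month change was 0.24.

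Ndufa12 had the largest difference between ages within complex I (0.86, limma adjusted p = 0.0021). Its groups overlapped at P36 (115, 122 and 139 against 131, 139 and 113 FPKM) and did not overlap at 6 months (66.8, 79.9 and 73.8 against 127, 151 and 132 FPKM, change 0.89, limma adjusted p = 0.0014). The accessory subunits that were not called at 6 months were Ndufa8, Ndufa10, Ndufa11, Ndufb6, Ndufb10 and Ndufv3, with changes from -0.05 to 0.39. Ndufa11, with 15.2, 18.7 and 18.3 FPKM in controls and 17.8, 17.7 and 17.0 FPKM under the DKO label, had the smallest change in size within complex I (0.01). Over 16 alternatives its change ran from -0.24 to 0.30. It was called only under the GC and length correction described further on (limma adjusted p = 0.048). Ndufv3 was called under that correction and under the GC correction.

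Complex II, succinate dehydrogenase, also works in the citric acid cycle. Its flavoprotein subunit Sdha rose at 6 months from 36.4, 36.3 and 37.1 FPKM to 47.1, 47.6 and 46.9 FPKM (0.36, SE 0.08, limma adjusted p = 0.011), a small difference with little spread. The membrane anchor Sdhd was higher at both ages. At P36 it stood at 30.6, 29.2 and 32.2 FPKM in controls and 52.1, 45.01 and 45.8 FPKM under the DKO label (0.62, SE 0.09, limma adjusted p = 0.0029). At 6 months the values were 20.6, 23.3 and 24.6 against 40.1, 42.7 and 39.9 FPKM (0.82, SE 0.10, limma adjusted p = 0.0012). The groups were apart each time, and the change did not differ between ages by the test (0.20, limma adjusted p = 0.25).

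The other anchor, Sdhc, was not called at 6 months (0.04, limma adjusted p = 0.79) and its groups overlapped there. Sdhb, the iron-sulfur subunit, had opposite positions at the 2 ages. At P36 its 3 DKO-labelled libraries lay below the controls (106, 97.2 and 94.1 against 114, 109 and 118 FPKM, -0.20, limma adjusted p = 0.15). At 6 months they lay above (49.0, 52.2 and 49.4 against 36.7, 41.9 and 46.7 FPKM, 0.27, limma adjusted p = 0.088). Neither passed the test, while the difference between ages did (0.46, limma adjusted p = 0.019), in all alternatives but 1, the equal column totals described further on, where the adjusted p was 0.064. The 6-month change of Sdhb was called in 2 of 16 alternatives.

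Complex III, the cytochrome bc1 complex, gave the highest median of the 5 at 6 months, also in 15 of 16 alternatives; with the GC correction described further on complex V stood at 0.87 and complex III at 0.82. All 5 small subunits rose (Uqcrb, Uqcrh, Uqcrq, Uqcr10 and Uqcr11, changes from 0.83 to 1.12), and of the 3 core subunits Uqcrc2 and the Rieske iron-sulfur protein Uqcrfs1 rose. The Uqcrb call was lost under the GC and length correction (0.17, limma adjusted p = 0.11). Uqcr10 stood at 72.8, 98.1 and 85.1 FPKM in controls and at 185, 198 and 175 FPKM under the DKO label. Every DKO-labelled value lay far above the highest control. At P36 its groups overlapped, with 211, 200 and 258 against 231, 259 and 237 FPKM.

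Uqcrc2 and Uqcrc1, the 2 large core proteins of complex III, differed. Uqcrc2 read 52.2, 55.8 and 58.8 FPKM in controls and 111, 126 and 103 FPKM under the DKO label (1.01, SE 0.10, limma adjusted p = 0.00072). Uqcrc1 read 74.8, 89.5 and 89.1 FPKM against 82.2, 67.1 and 79.6 FPKM, with overlapping groups (-0.15, SE 0.12, limma adjusted p = 0.36). Their transcripts are of like length but differ in GC content, at 44.4% for Uqcrc2 and 57.5% for Uqcrc1. Over 16 alternatives, both GC corrections among them, Uqcrc2 was called in all 16 (0.67 to 1.07) and Uqcrc1 in 0 (-0.33 to 0.13). Cytochrome c1 (Cyc1), a further subunit of the complex whose symbol falls outside the rule, rose by 0.46 (limma adjusted p = 0.0091).

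Complex IV, cytochrome c oxidase, has nuclear subunits that come in widely expressed and tissue-restricted forms. Of 11 widely expressed subunits 10 rose at 6 months (median 0.91). Cox7b had the smallest p of all members: 50.1, 56.2 and 58.0 FPKM in controls and 129, 143 and 128 FPKM under the DKO label (1.27, SE 0.10, limma adjusted p = 0.00026). At P36 the groups were also apart (63.4, 66.5 and 93.4 against 95.3, 110 and 104 FPKM), without passing the test (0.48, limma adjusted p = 0.053). The exception was Cox4i1, the main form of a subunit at the regulatory face of the enzyme, whose groups overlapped at both ages. It stood at 176, 205 and 242 against 233, 233 and 246 FPKM at 6 months (0.20, limma adjusted p = 0.24). Cox4i1 was called higher in 1 of 16 alternatives, the GC correction described further on, where complex IV had 12 of 16 members higher. Its transcript has 58.0% GC.

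Ndufa4, named for complex I and since assigned to complex IV, rose at both ages. It read 239, 207 and 313 FPKM in P36 controls against 374, 481 and 396 FPKM (0.73, SE 0.17, limma adjusted p = 0.017). At 6 months it read 237, 338 and 308 against 735, 868 and 612 FPKM (1.32, SE 0.18, limma adjusted p = 0.0017), with no overlap at either age. Cox6b1, which lies where the 2 units of an oxidase dimer meet, rose at 6 months from 200, 218 and 231 to 433, 530 and 450 FPKM (1.12, limma adjusted p = 0.00071). Cox7a2l, which helps to join complex III to complex IV, rose by 0.53 (limma adjusted p = 0.011), a call lost under the GC and length correction.

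**Figure D2:**
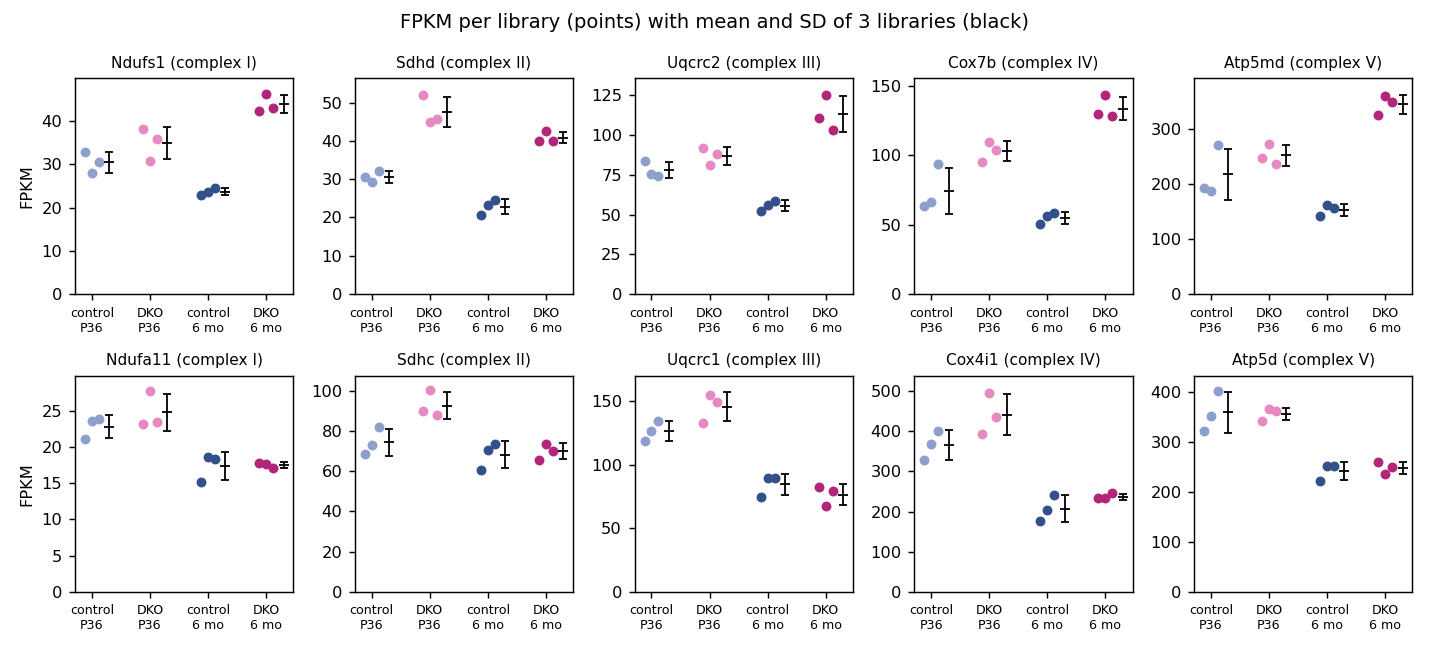
FPKM of 10 members in each library (points) with mean and SD of 3 libraries (black), by group. The upper row holds the structural subunit with the smallest p at 6 months in each complex. The lower row holds a member of the same complex that was not called in the uncorrected fit. Under the corrections described further on, Cox4i1 and Atp5d (GC) and Ndufa11 (GC and length) were called. In the upper row the darkest points (DKO, 6 months) clear the 6-month controls, and in the lower row they overlap them.

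The tissue-restricted forms did not follow the widely expressed ones at 6 months. Of 4 tested by limma, none rose and 1 fell, with a median of -0.62 (0 higher and 2 lower at an unadjusted p below 0.05). Cox6b2, the testis form of Cox6b1, fell from 5.29, 5.70 and 6.94 FPKM in controls to 1.69, 2.42 and 2.57 FPKM (-1.12, SE 0.16, limma adjusted p = 0.0021). All 3 DKO-labelled values lay below the controls, and at P36 the groups overlapped (6.44 to 7.90 against 6.84 to 7.97 FPKM). Cox4i2, the lung and hypoxia form of Cox4i1, lay below the controls in all DKO-labelled libraries at both ages without passing the test (5.19, 6.11 and 13.5 against 3.20, 4.17 and 3.80 FPKM at P36, -0.87, limma adjusted p = 0.067). At 6 months it read 1.61, 2.29 and 1.53 against 0.45, 0.36 and 1.47 FPKM (-0.72, limma adjusted p = 0.058), and it was called in 4 of 16 alternatives at P36 and 5 of 15 at 6 months. Ndufa4l2, a hypoxia-induced relative of Ndufa4, read 110, 202 and 128 against 107, 107 and 83.5 FPKM at 6 months (-0.52, limma adjusted p = 0.11).

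At P36 the muscle forms stood out. Cox8b, the heart and muscle form of Cox8a, rose from 1.11, 0.79 and 1.75 FPKM to 8.45, 6.07 and 4.73 FPKM (1.74, SE 0.22, limma adjusted p = 0.0016). Cox6a2, the heart and muscle form of Cox6a1, read 0, 0.17 and 0.52 FPKM in controls and 8.44, 4.92 and 1.79 FPKM under the DKO label (2.15, SE 0.40, limma adjusted p = 0.0069). Neither gene reached 1 FPKM in all 3 controls, so both passed the expression filter through libraries in which they were high, and Cox6a2 was not tested at 6 months. Their widely expressed partners were not called at P36 (Cox8a 0.21, limma adjusted p = 0.31, and Cox6a1 0.09, limma adjusted p = 0.73). The third muscle form, Cox7a1, read 3.86, 5.07 and 6.34 FPKM in controls and 5.58, 5.12 and 3.06 FPKM under the DKO label, with overlapping groups.

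Skeletal muscle markers moved with these 2 genes. Of 18 markers 15 passed the filter at P36, most through the libraries labelled DKO, so that a count of those that rose says little. The 4 that reached the minimum in every control (Acta1, Ckm, Tnni2 and Mylpf) all rose. The summed level of the 18 was 17.7 to 36.4 FPKM in P36 controls and 166 to 736 FPKM in the P36 libraries labelled DKO. No muscle marker was at 0 in every library of a group, and Ttn was at 0 in at least 1 P36 control. At 6 months the sums overlapped, at 12.8 to 82.4 and 12.3 to 186 FPKM, and the DKO-labelled library with the highest sum was also the one with 3.57 FPKM of Cox6a2, beside 0.19 and 0 in the other two. The part of muscle RNA in the Cox8b and Cox6a2 values was not tested. Markers of other cell types moved at P36 too, when 18.0% of all genes tested rose and 5.32% fell. Adipocyte markers that reached the minimum in every control rose in 5 of 7 cases, with sums over the list of 773 to 1187 FPKM in controls and 1075 to 1359 FPKM under the DKO label. By the same count 4 of 6 macrophage and granulocyte markers, 4 of 8 dermal fibroblast markers and 5 of 8 sebaceous gland markers rose, 1 sebaceous marker fell, and 3 of 5 melanocyte markers fell. Of 8 keratinocyte markers 3 rose (Krt1, Krt10 and Krt14) and 1 fell (Krt15). Their sums were 4846 to 6355 FPKM in P36 controls and 9941 to 12955 FPKM under the DKO label. The part of these cell types in the P36 values was not tested.

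**Figure D3:**
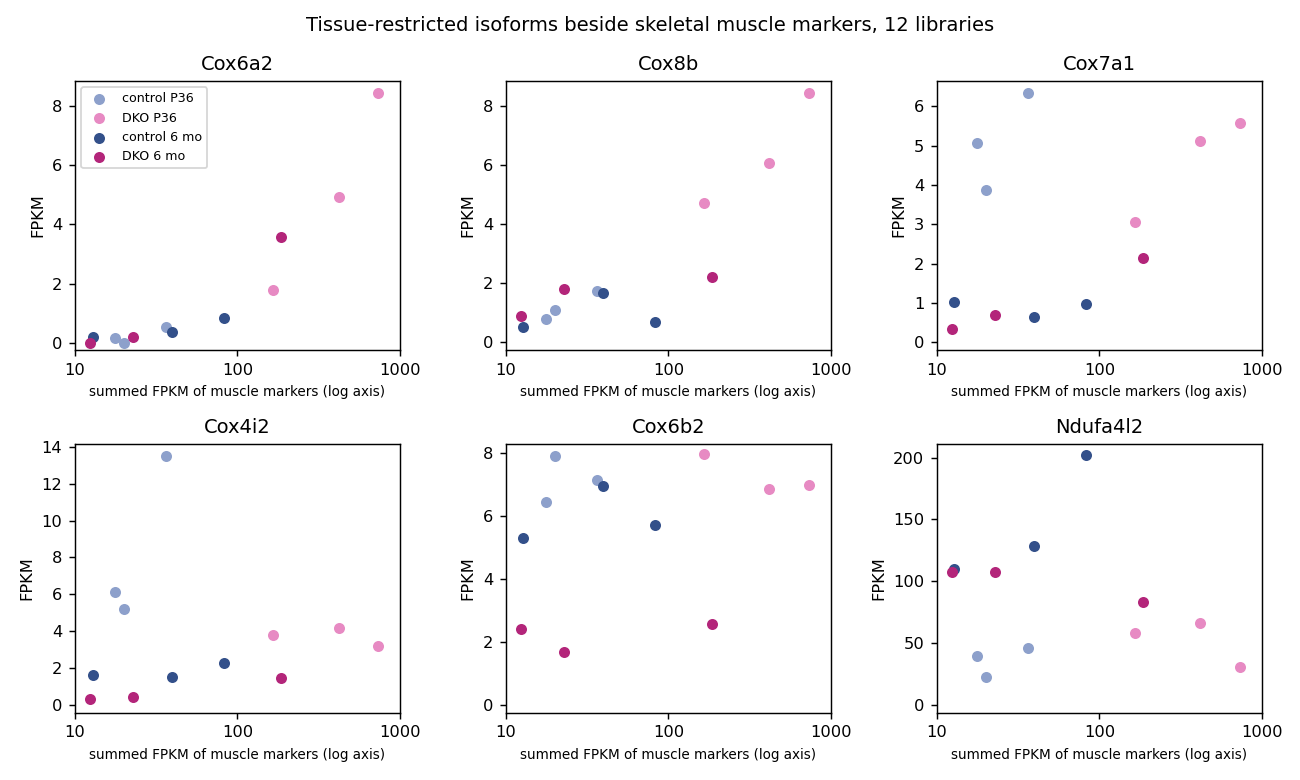
FPKM of 6 tissue-restricted isoforms against the summed FPKM of 18 skeletal muscle markers (log axis) in 12 libraries, coloured by group. For Cox8b the 3 P36 libraries labelled DKO lie highest, at marker sums of 166 to 736 FPKM, for Cox6a2 a 6-month library labelled DKO with 3.57 FPKM lies above 1 of them, and for Cox6b2 the 6-month libraries labelled DKO lie lowest, at 1.69 to 2.57 FPKM.

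Complex V, the ATP synthase, was described by its parts. In the F1 head, which makes ATP, 4 of 5 subunits rose at 6 months (median 0.54). Atp5b, the catalytic beta subunit and the most abundant member of the complex, rose from 273, 290 and 301 FPKM to 415, 413 and 428 FPKM (0.54, SE 0.09, limma adjusted p = 0.0036). The delta subunit Atp5d was not called (222, 253 and 253 against 260, 236 and 250.5 FPKM, 0.04, limma adjusted p = 0.78). With its transcript at 61.1% GC, Atp5d was called higher under the GC correction described further on, where complex V had 16 of 17 members higher. All 4 subunits of the peripheral stalk, which keeps the head from turning with the rotor, rose (Atp5pb, Atp5h, Atp5j and Atp5o, changes from 0.76 to 1.12). Atp5pb read 76.5, 84.5 and 87.5 FPKM in controls and 157, 172 and 157 FPKM under the DKO label (0.96, SE 0.09, limma adjusted p = 0.00061).

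All 5 small membrane subunits rose as well (Atp5j2, Atp5k, Atp5l, Atp5md and Atp5mpl, changes from 0.74 to 1.41). Atp5mpl stood at 58.1, 66.9 and 71.3 FPKM in controls and at 159, 196 and 173 FPKM under the DKO label (1.41, SE 0.12, limma adjusted p = 0.00035). It had the largest change of the 93 members tested, and its P36 values overlapped (180, 178 and 251 against 220.3, 207 and 222 FPKM). Atp5md, which helps ATP synthase dimers to form, read 141, 163 and 156 against 326, 360 and 349 FPKM (1.17, limma adjusted p = 0.00034). That call was lost under the GC and length correction (0.18, limma adjusted p = 0.13).

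The rotor ring is made of copies of 1 mature protein that 3 genes encode. Atp5g3 rose at 6 months from 77.1, 94.8 and 93.5 to 147, 145 and 145 FPKM (0.72, limma adjusted p = 0.0022), and Atp5g1 by 0.35 (limma adjusted p = 0.017), with groups that did not overlap. Atp5g2 was not called (174, 201 and 218 against 209, 229 and 232 FPKM, 0.18, limma adjusted p = 0.24). It was called higher in 1 of 16 alternatives, the GC correction. Its reads are uncertain, because 87.4% of its 50-base words occur in transcripts of another gene. The Atp5g3 and Atp5g1 calls were lost in 1 and 3 of 16 alternatives.

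Assembly factors help to build the complexes and are not part of them. Of the 8 for complex I, 4 rose at 6 months. Ndufaf4 read 4.95, 6.44 and 5.0 FPKM in controls and 10.7, 11.9 and 9.65 FPKM under the DKO label (0.87, SE 0.14, limma adjusted p = 0.0029), with overlapping groups at P36 (5.90, 6.50 and 6.77 against 7.33, 5.79 and 5.60 FPKM). Of the 4 for complex II, Sdhaf2, Sdhaf3 and Sdhaf4 rose. Sdhaf4, which acts on the flavin-bearing Sdha, also rose at P36 (9.40, 9.27 and 10.02 against 14.7, 14.8 and 11.5 FPKM, 0.47, limma adjusted p = 0.023). Its 6-month call (0.72, limma adjusted p = 0.0497) held in 5 of 16 alternatives and its P36 call in 7 of 16.

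The P36 count moved with single libraries. Among the 6, Sdhd was called in all 16 alternatives and Cox8b in all 15 where it was tested, while Cox6a2 held in 11 of 12, Ndufa4 in 11 of 16 and Ndufa1 in 7 of 16. The count fell to 2 without the second library labelled DKO, and to 3 without the first or the third of them or without the second control. Cox6a2 could not be called without any 1 of the DKO-labelled libraries, since it then missed the expression filter, so 1 of the calls lost in each of those 3 fits was lost to the filter. The count rose to 23 without the third control, 22 of them higher.

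Whether the genotype effect differed between ages was tested as an interaction over all 12 libraries. Among called members the effect at 6 months minus that at P36 was positive in 45 and negative in 2. Of 13280 genes, 13.8% were called positive, 21.1% negative and 34.9% in either direction. The sign does not say at which age the effect was larger in size. The median difference was 0.47, against -0.08 for all genes. Complex III had 7 of 8 members with a positive difference called, complex V 9 of 17 and complex I 16 of 36. Complex IV had 8 of 18 (and both negative ones), complex II 1 of 4 and the assembly factors 4 of 12. The 2 called with a negative difference were Cox8b (-1.30, limma adjusted p = 0.022) and Cox6b2 (-1.14, limma adjusted p = 0.0014). Cox8b changed by 1.74 at P36 and 0.44 at 6 months, and Cox6b2 by 0.02 and -1.12. The largest positive difference was that of Atp5mpl (1.31, SE 0.19, limma adjusted p = 0.00059), followed by Uqcr10 at 1.00. Cox6a2 had a difference of larger size that did not pass the test (-1.86, limma adjusted p = 0.077).

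Levels at the 2 ages come from separate tables of the authors, each library scaled on its own, so the comparison of ages is weaker than that of genotypes. In controls, 74 members were lower at 6 months than at P36 and 1 was higher (Ndufa4l2, 2.00), against 27.9% lower, 35.3% higher and 63.1% called among all genes. The median member change was -0.71, against 0.10 for all genes. In the libraries labelled DKO, 51 members were lower and 15 higher (32.0% lower, 28.0% higher and 60.0% called among all genes), with a median of -0.34. Under the GC and length correction described further on the counts were 52 lower and 10 higher in controls, and 34 lower and 21 higher under the DKO label. These age comparisons use the same libraries as the genotype comparisons, so the counts are not separate evidence. By complex, the median FPKM in control libraries averaged 88.8 at P36 and 47.7 at 6 months for complex I, 66.6 and 39.2 for complex II, 158 and 84.9 for complex III, 261 and 177 for complex IV, and 247 and 141 for complex V. Under the DKO label the 6-month averages were 73.3, 48.7, 150, 247 and 231 FPKM in the same order.

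Leaving out the tissue-restricted isoforms, 82 of 89 members had their lowest group mean in the 6-month controls. The highest mean was in the P36 libraries labelled DKO for 50 members, in the 6-month libraries labelled DKO for 32 and in the P36 controls for 7. The mean of the 6-month libraries labelled DKO lay between the controls of the 2 ages for 47 members and above both for 40. Uqcrb was of the second kind, with 168, 164 and 236 FPKM in P36 controls, 202, 191 and 202 FPKM in 6-month controls, and 366, 462 and 374 FPKM in the 6-month libraries labelled DKO. Atp5e was of the first kind, with 316 to 430 FPKM in P36 controls, 51.4, 83.1 and 81.0 FPKM in 6-month controls, and 115, 112 and 117 FPKM under the DKO label.

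**Figure D4:**
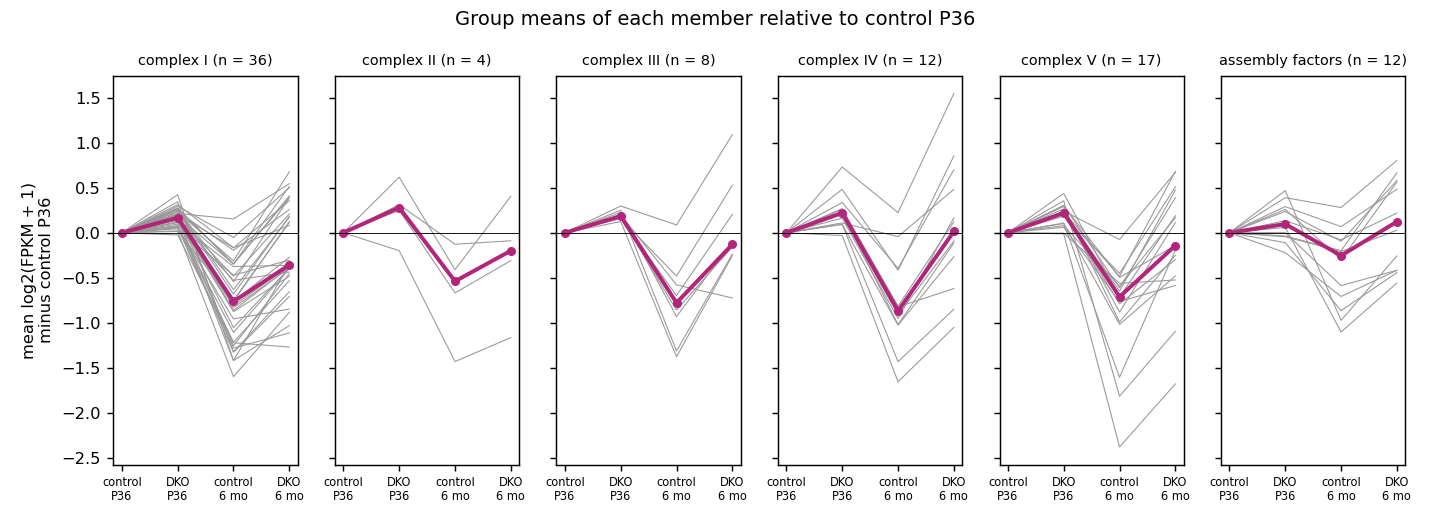
Group means of log2(FPKM + 1) for each member (grey lines) and their median (bold), relative to the P36 controls, by complex and without tissue-restricted isoforms; the ages come from separately made tables. In each of complexes I to V the bold line has its lowest point at the 6-month controls.

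Members have short transcripts, and length and base composition moved with the change at 6 months. The median member transcript was 838 bases long with 51.0% GC, against 2975 bases and 50.4% for all genes tested. Among other genes the median change at 6 months was 0.51 below 600 bases, 0.47 from 600 to 800, 0.24 from 800 to 1200, 0.10 from 1200 to 2000 and 0.01 from 2000 to 4000. Members in the same ranges had medians of 0.74 (25 genes), 0.72 (19), 0.55 (19), 0.53 (18) and 0.41 (10). Over GC content, other genes ran from 0.30 below 45% to -0.24 above 55%, and members from 1.00 (11 genes) to 0.32 (26 genes).

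Each member range thus had a higher median than other genes of like length or like GC content. Over the 93 members the change was correlated with GC content at r = -0.48 (Spearman -0.45), given as a description, since all points share the same libraries. With a smooth curve for GC content and transcript length removed from each library, 46 members were higher and 3 lower at 6 months, with a median of 0.27, and 45 calls were shared with the uncorrected fit. Under that correction 20.4% of all genes were higher and 15.4% lower. With a curve for GC content alone removed, 72 members were higher and 1 lower with a median of 0.63, against 19.9% and 16.2% of all genes. Both corrections were chosen after the values were seen. The part of fragment length or RNA quality in the change was not tested.

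**Figure D5:**
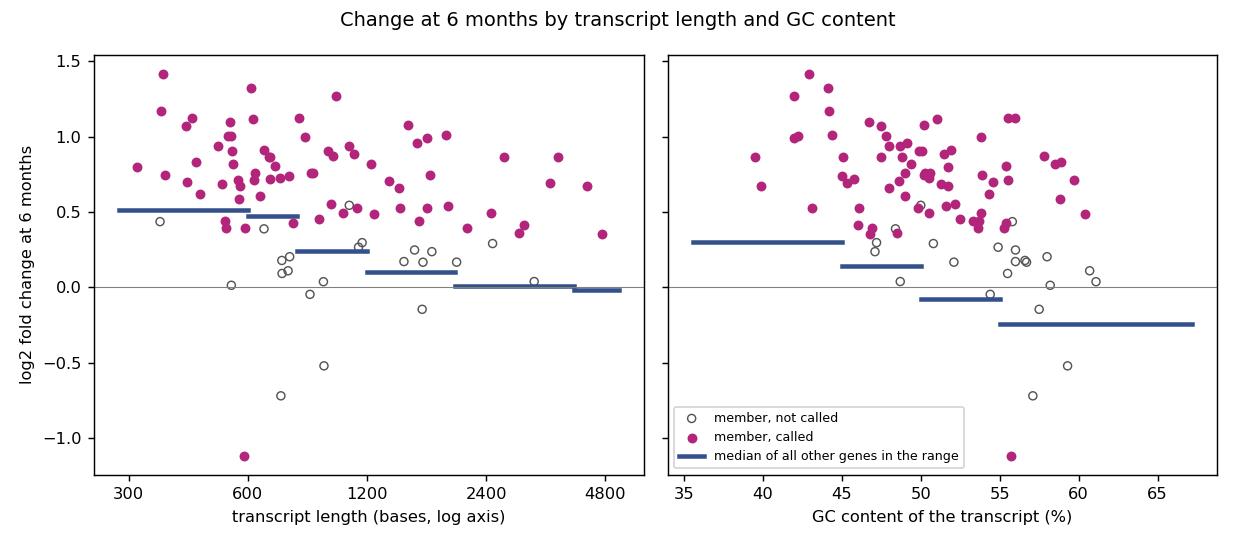
Log2 fold change at 6 months of each member (points, filled where called) against transcript length (log axis, left) and transcript GC content (right), with bars for the median of all other genes in each range. The bars fall from 0.51 to -0.02 with length and from 0.30 to -0.24 with GC content, and most filled points lie above the bar of their range.

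Scaling moved all genes together. With the FPKM columns set to equal totals, the 6-month median over all genes went from 0.04 to -0.095 and the calls over all genes from 2918 higher and 2289 lower to 2052 and 3129, while the members had 60 higher and 3 lower with a median of 0.52. With keratin and cornified envelope genes left out of the totals, all genes had a median of -0.12 with 1903 higher and 3287 lower, and the members had 56 higher and 3 lower with a median of 0.49. In these 2 settings Cox4i2 and Ndufa4l2 were called lower. Of the 70 members higher at 6 months, 40 were called higher in all 16 alternatives.

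Many members have pseudogenes or close relatives whose reads can be hard to place. Of the 95, 32 shared more than 10% of their 50-base words (the read length) with transcripts of another gene, 6 of these more than 50% (Atp5g2, Atp5l, Sdhaf1, Cox7c, Atp5h and Atp5o), and 44 shared none. The values of those 6 are uncertain for this reason. Among members with no shared word, 27 of 43 rose and 1 fell at 6 months (median 0.54), and among those above 10%, 27 of 32 rose (0.70).

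Other mitochondrial genes were counted in the same fit, where 23.2% of all genes rose and 18.2% fell at 6 months. Of 15 genes for cytochrome c, cytochrome c1 and coenzyme Q synthesis, 9 rose at 6 months and none fell by limma (median 0.46, with 12 higher and 1 lower at an unadjusted p below 0.05), led by Cycs, cytochrome c itself (1.09, limma adjusted p = 0.0005), and Coq3 (1.43, limma adjusted p = 0.0006). Of 14 citric acid cycle genes 8 rose and 1 fell (median 0.30). Fumarate hydratase, Fh1, rose by 0.86 (limma adjusted p = 0.0019), and the NADP-dependent isocitrate dehydrogenase Idh2 fell by 0.60 (limma adjusted p = 0.006) after rising by 0.57 at P36 (limma adjusted p = 0.014). Of 16 carriers, porins and pyruvate-handling genes 9 rose (median 0.41), among them the ADP/ATP carrier Slc25a5 (1.09, limma adjusted p = 0.0006).

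Of 26 tested assembly factors of complexes III to V, 9 rose (median 0.37), and of 7 further complex I assembly factors 3 rose (0.43), led by Acad9 (1.08, limma adjusted p = 0.0008). Among 14 regulators of mitochondrial biogenesis 5 rose and 1 fell (median 0.17). Tfb2m and Tfam, which act in mitochondrial transcription, rose by 0.92 (limma adjusted p = 0.0014) and 0.42 (limma adjusted p = 0.016), and Gabpa, a subunit of GABP, by 0.36 (limma adjusted p = 0.016). Polg, the mitochondrial DNA polymerase, fell by 0.33 (limma adjusted p = 0.044). Nrf1 (-0.17, limma adjusted p = 0.19), Yy1 (-0.09, limma adjusted p = 0.52) and Esrra (0.24, limma adjusted p = 0.31) were not called. At P36 none of these 14 passed limma's threshold (2 at an unadjusted p below 0.05), and 3 of 14 citric acid cycle genes, 6 of 15 genes of cytochrome c and coenzyme Q and 6 of 16 carriers rose, against 18.0% of all genes.

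Markers of other cell types also differed at 6 months, when 23.2% of all genes tested rose and 18.2% fell. Among markers of the sebaceous gland, 5 of 8 rose and 1 fell. Their summed levels were 507 to 912 FPKM in controls and 1288 to 1633 FPKM under the DKO label, and no such marker was at 0. Of 8 keratinocyte markers 1 rose (Krt1) and 5 fell (Krt15, Krt5, Lor, Krt10 and Dsg1a), with sums of 12739 to 19219 and 8694 to 11456 FPKM. Of 8 macrophage and granulocyte markers 2 rose (S100a8 and S100a9) and Csf1r fell. Of the 5 brown fat markers 3 were tested, and Cidea and Elovl3, which also stand in the sebaceous list, rose; Ucp1 was at 0 in at least 1 library of each group but the 6-month DKO-labelled one. None of 10 muscle, 8 adipocyte and 8 dermal fibroblast markers tested at 6 months passed limma's threshold, and none had an unadjusted p below 0.05. The part of these cell types in the members' change was not tested.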

How the data were processed

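The authors deposited 1 table for each age, with an FPKM value per gene and library, and with their own log2 fold changes, p-values and q-values per comparison. The submitters' processing notes list the tools HISAT2 2.1.0 and RSEM 1.2.8. They also list GRCh38 and hg38, which are human builds, although the samples are mouse. Gene coordinates were therefore not taken from the files, and the age of a table was read from its name. Read counts were not used here, so depth is unknown.

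Entrez numbers were matched to mouse symbols for 19343 of 19392 identifiers at P36 and 17712 of 17750 at 6 months. FPKM was taken as log2(FPKM + 1) and fitted with limma 3.58.1 in R 4.3.3 (trended variance), over all genes that reached 1 FPKM or more in 3 or more of the fitted libraries. P-values were adjusted by Benjamini-Hochberg over all genes tested, and genes were called at 0.05. The fit was run on simulated data with independent noise in each library. That simulation held no dependence on GC content or transcript length, so it cannot speak to shifts of that kind. With a pseudocount of 1, fold changes of low genes are understated. Nothing in the labels says that the 3 libraries of a group came from separate animals, so p-values measure only the spread between these libraries.

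Members and lists were chosen with earlier results of these data known. The roles of members were set by hand from textbook knowledge. Members were named by smallest p within each complex, by direction and comparison, together with the tissue-restricted isoforms and their partners, the Atp5g genes, and the highest and lowest members of a complex. Further members, such as Ndufv1, Ndufs7 and the examples that were not called, were chosen after their values were seen. Lengths, GC content and shared 50-base words came from GENCODE mouse transcripts, and promoters from RefSeq (GRCm38.p6). The alternatives were a pseudocount of 0.1, no filter, a filter at 5 FPKM, 2 other scalings, a replicate block, a joint fit of 12 libraries and each library left out. A GC correction, a GC and length correction and equal column totals were chosen after seeing the data.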

Additional observations from a re-analysis of the deposited data

Results flagged for a closer look

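The genotype effect differed between ages, by the interaction test over all 12 libraries, in 47 members. The values here are the effect at 6 months minus the effect at P36 on the log2 scale, for those of the 47 that were named by rule. All were positive except those of Cox8b and Cox6b2.

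In complex I the differences were 0.86 for Ndufa12, 0.76 for Ndufv2, 0.68 for Ndufs1, 0.65 for Ndufa1 and 0.60 for Ndufa3. Sdhb of complex II had a difference of 0.46. In complex III they were 1.00 for Uqcr10, 0.85 for Uqcrc2, 0.83 for Uqcrq, 0.74 for Uqcrh and 0.71 for Uqcrb.

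In complex IV the widely expressed Cox6b1 had a difference of 0.96, Cox7b 0.79, Cox7c 0.76, Cox7a2 0.68 and Cox8a 0.61. The tissue-restricted Cox8b had -1.30 and Cox6b2 -1.14. In complex V the differences were 1.31 for Atp5mpl, 0.94 for Atp5md, 0.90 for Atp5j, 0.78 for Atp5pb, 0.51 for Atp5c1 and 0.43 for Atp5b. Among assembly factors they were 0.90 for Ndufaf4, 0.60 for Ndufaf2 and 0.53 for Ndufaf8. Not all of these calls held in every alternative. Among 21 alternatives Ndufa3 was called in 10, Ndufaf8 in 13, Ndufaf2 in 14 and Uqcrb in 19. Cox8b was called in 17 of 20. The Ndufa1 call was lost under the GC and length correction, where the difference was 0.02. Calls of Ndufa3, Uqcrb, Cox7c, Atp5md, Ndufaf2 and Ndufaf8 were lost under that correction as well.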

How the results depend on the processing

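The number of members called at 6 months stayed between 49 and 73 over 16 alternatives, most of them higher, and between 61 and 68 with each library left out. At P36 the count went from 6 to 12 with equal column totals and ranged from 2 to 23 with each library left out. The difference between ages was called in 31 members after the GC and length correction, 27 of them shared with the 47 of the uncorrected fit. With each library left out it was called in 38 to 49. That correction left 62 members called for age in controls (10 higher and 52 lower, against 1 and 74) and 55 for age under the DKO label (21 and 34, against 15 and 51). The causes of these shifts were not tested.

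With 3 libraries per group, these values cannot settle whether replicate numbers pair the libraries. The deviations of same-numbered libraries from their group means were correlated at 0.135, -0.058 and -0.115 at P36 and at -0.063, 0.032 and 0.183 at 6 months. For differently numbered libraries the correlations ran from -0.206 to 0.206 at P36 and from -0.202 to 0.234 at 6 months. With the replicate number as a block, 7 members were called at P36, 70 at 6 months, 48 for the difference between ages, 76 for age in controls and 67 for age under the DKO label.

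Median member changes ranged from 0.27 to 0.73 at 6 months, from 0.09 to 0.25 at P36 and from 0.18 to 0.56 for the difference. FPKM without counts gives no depth, so counting error of low members such as Cox6a2 is unknown.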

Other observations

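The authors' own q-values call far more genes. Some of these q-values are smaller than the authors' p-values, so the counts are given only as the authors' own. At 6 months, 86 members were higher and 5 lower at a q-value below 0.05 in the authors' deposited table, where 80.6% of all genes passed. At P36, 76 members were higher and 3 lower in the authors' deposited table, where 69.9% of all genes passed. The median member change in the authors' deposited table was 0.7 at 6 months and 0.2 at P36 on the log2 scale, against 0.04 and 0.12 over all genes.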
